A study of Mus musculus with 14 samples.

Results

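Matrix metalloproteinases and their tissue inhibitors were followed in mouse lung as 10 genes, Mmp2, Mmp3, Mmp8, Mmp9, Mmp11, Mmp12, Mmp14, Timp1, Timp2 and Timp3. They were found by gene symbol, current or older, in the probe table of the array. Each gene had 1 probe, so 10 of the 19621 probes and 10 of the 13923 genes named by a single-gene probe were members. Total lung RNA was measured on 14 single-colour CodeLink UniSet I arrays. The groups were 4 ventilated jnk1-/- lungs, 3 jnk1-/- control lungs, 4 ventilated wild-type lungs and 3 wild-type control lungs. The jnk1-/- mice lack c-Jun-NH2-terminal kinase-1 in all cells from the germline on, and both genotypes were on the C57/BL6 background. Ventilated mice received a tidal volume of 10 ml/kg with a PEEP of 2 cmH2O for 8 hours. Controls were killed right after anesthesia, so prolonged anesthesia, surgery and 8 hours of time go together with ventilation and cannot be told apart from it. The labels give each array as a sample of its own but not the age of the mice, and p-values measure the spread between these samples.

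Matrix metalloproteinases are zinc enzymes that are made as inactive proforms, and once activated they cut collagens, elastin, proteoglycans and many signalling proteins outside the cell. TIMPs bind the active site of these enzymes and block it. In the lung, neutrophils store Mmp8 and Mmp9 in granules, alveolar macrophages are the main known source of Mmp12, and fibroblasts and other stromal cells make Mmp2, Mmp3, Mmp11, Mmp14 and the TIMPs. Many of these genes are known targets of AP-1, the dimer of Fos and Jun proteins, and Jun is phosphorylated by JNK.

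Values are log2 intensities after normalization between arrays, and a difference of 1 on this scale is a doubling. A difference was called at a Benjamini-Hochberg adjusted p under 0.05 over all 19621 probes in limma. The authors' own normalized table has a floor, and between 21.8% and 25.6% of the probes of each array lay at it. The targeted gene, Mapk8, which codes for JNK1, had a probe at that floor on 3 of 4 ventilated jnk1-/- arrays, 3 of 3 jnk1-/- control arrays, 2 of 4 ventilated wild-type arrays and 1 of 3 wild-type control arrays. At such levels the probe did not check the genotype labels. Of 15 skeletal muscle markers measured, 12 were higher in jnk1-/- than in wild-type controls and none was lower. Their mean level lay between 8.28 and 8.69 on the 3 jnk1-/- control arrays and between 3.94 and 4.74 on the other 11. Of 16 markers of stratified squamous epithelium, 11 were higher in jnk1-/- than in wild-type controls, with mean levels of 7.23 to 8.05 on the jnk1-/- control arrays against 2.82 to 4.40 on the wild-type control arrays. Between the controls of the genotypes, 1.87% of all probes were called higher and 2.16% lower in jnk1-/- lungs. The 3 jnk1-/- control arrays stand apart from the other 11 in these markers. Every comparison that uses the jnk1-/- controls carries this difference, and its part in the results on the members was not tested.

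Mmp3, Mmp8 and Mmp12 lie close together on chromosome 9, in a cluster that runs in the order Mmp13, Mmp12, Mmp1b, Mmp3, Mmp1a, Mmp10, Mmp8, Mmp27, Mmp20 and Mmp7 (RefSeq genes of GRCm38.p6). Of these 10 genes, 9 had a probe. RefSeq promoter windows of the same build were found for 8 of the 10 members, all but Mmp2 and Mmp9, with 2 start sites for Mmp12. The 250 bases before the start were searched on both strands. AP-1 was searched as TGANTCA. The TATA box, which places the start of transcription, was searched as TATAAA. The core of sites for Ets factors was searched as GGAAG. No match overlapped another. The windows below are those of 4 members with called differences (Mmp3, Mmp8, Timp1 and Mmp11), and of Mmp12 as a second AP-1 holder, with AP-1 and TATA matches in capitals.
Mmp3, chr9:7445572-7445821, plus strand: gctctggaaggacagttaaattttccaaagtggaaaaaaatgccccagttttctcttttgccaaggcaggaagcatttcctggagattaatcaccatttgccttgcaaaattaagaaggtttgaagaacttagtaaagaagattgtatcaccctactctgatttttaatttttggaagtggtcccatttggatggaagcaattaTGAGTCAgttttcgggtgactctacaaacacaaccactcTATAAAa
Mmp12 start 2, chr9:7347124-7347373, plus strand: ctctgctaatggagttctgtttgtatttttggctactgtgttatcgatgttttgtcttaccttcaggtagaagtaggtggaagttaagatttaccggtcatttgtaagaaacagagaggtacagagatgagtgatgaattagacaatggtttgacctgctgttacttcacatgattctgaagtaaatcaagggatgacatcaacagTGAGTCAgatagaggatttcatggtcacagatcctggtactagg
Mmp8, chr9:7558179-7558428, plus strand: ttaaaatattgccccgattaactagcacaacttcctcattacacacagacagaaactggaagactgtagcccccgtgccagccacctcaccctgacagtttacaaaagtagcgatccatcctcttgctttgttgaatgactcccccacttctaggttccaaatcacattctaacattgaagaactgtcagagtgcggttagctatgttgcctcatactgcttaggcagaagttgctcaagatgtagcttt
Timp1, chrX:20869916-20870165, plus strand: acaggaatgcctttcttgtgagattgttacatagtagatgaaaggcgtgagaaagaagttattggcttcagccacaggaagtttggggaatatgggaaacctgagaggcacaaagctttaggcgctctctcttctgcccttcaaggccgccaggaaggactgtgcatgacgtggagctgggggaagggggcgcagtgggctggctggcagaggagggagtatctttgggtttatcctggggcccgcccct
Mmp11, chr10:75932503-75932752, minus strand: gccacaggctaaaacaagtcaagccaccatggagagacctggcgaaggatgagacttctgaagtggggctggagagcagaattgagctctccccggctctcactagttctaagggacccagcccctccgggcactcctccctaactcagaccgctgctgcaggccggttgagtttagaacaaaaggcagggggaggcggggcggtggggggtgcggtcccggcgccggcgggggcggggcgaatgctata
Mmp3 held an AP-1 match at bases -46 to -40 and the only TATA match among the members, at bases -7 to -2, counted back from the annotated start. The second start of Mmp12 held the same AP-1 heptamer at bases -44 to -38. No other member's window held TGANTCA, so 2 of 8 members and 2 of their 9 windows had it, against 6.75% of all 32851 promoter windows of this length. TATAAA occurred in 12.4% and GGAAG in 64.1% of all windows, and GGAAG or its complement in 7 of the 8 members, Mmp11 having none. A match is a description of the letters, and its absence in a window of this length says nothing about binding.

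**Figure D1:**
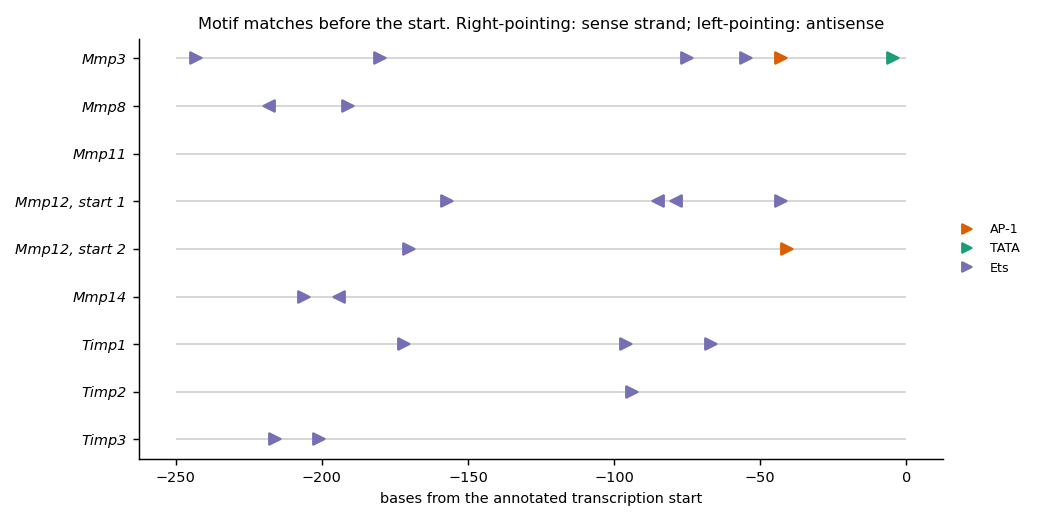
Positions of the searched motifs in the 250 bases before each annotated start, in bases from the start, for the 9 windows of 8 members. Triangles point right for the gene's own strand and left for the other (AP-1, whose motif reads the same on both strands, is drawn to the right). The 2 AP-1 matches, in Mmp3 and at the second start of Mmp12, lie at almost the same distance from the start.

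Mmp8, the collagenase of neutrophil granules that cuts fibrillar collagens, showed the largest change of the members in both genotypes. Its log2 intensity was 11.44, 11.93, 12.72 and 12.23 in ventilated jnk1-/- lungs, against 6.54, 6.67 and 6.80 in jnk1-/- controls. In wild-type mice it was 12.74, 11.97, 12.10 and 11.85 after ventilation, against 7.30, 6.95 and 6.31 in controls. The lowest ventilated array lay 4.64 above the highest control in jnk1-/- mice and 4.55 above it in wild-type mice. The difference was 5.42 in jnk1-/- mice (SE 0.32, a 42.7-fold change, adjusted p = 8.52e-06 in limma) and 5.31 in wild-type mice (SE 0.32, a 39.6-fold change, adjusted p = 3.21e-05 in limma). The ventilation effects of the genotypes differed by 0.11, with a 95% interval of -0.89 to 1.11, which leaves room for up to about a doubling either way. The study also reported higher Mmp8 RNA by RT-PCR in both genotypes. It reported more MMP8 protein after ventilation by immunostaining, done in wild-type lungs, and by immunoblot, quantified as active over pro-MMP8. The stain was restricted to certain cells, which the study took to be presumably mononuclear. Mmp8 was among the genes that the study selected on these same arrays, so its rise on them is not independent evidence. Markers of neutrophils were read beside it, and their part in the Mmp8 difference was not tested. Of 14 measured, 5 were higher and 1 lower in ventilated jnk1-/- lungs, where 6.73% of all probes were called higher and 5.02% lower. In ventilated wild-type lungs 5 were higher and none lower, where 2.18% of all probes were called higher and 1.49% lower. Clec4d, a lectin of myeloid cells, was higher by 3.48 in jnk1-/- (adjusted p = 1.3e-04) and 3.34 in wild-type lungs (adjusted p = 3.4e-04), both in limma. The study listed Clec4d, as macrophage C-type lectin, among the genes selected on these same arrays. S100a8, a calcium-binding protein of neutrophils that the study also singled out from these arrays, was higher by 3.15 in jnk1-/- (adjusted p = 0.00152) and 2.38 in wild-type lungs (adjusted p = 0.0143), both in limma. Trem1, an activating receptor of myeloid cells, was higher by 2.97 in jnk1-/- (adjusted p = 0.00306) and 4.93 in wild-type lungs (adjusted p = 3.4e-04), both in limma, and was at the authors' floor on all 3 controls of each genotype. The other calls were Cxcr2 and Csf3r, higher, and Ltf, lower, in jnk1-/- lungs, and Itgam and Ngp, higher, in wild-type lungs. The mean level of the 14 markers was 5.97 to 6.99 on ventilated jnk1-/- arrays against 5.16 to 5.69 on their controls, and 6.53 to 8.10 on ventilated wild-type arrays against 4.73 to 5.88 on theirs. Among the defining granule genes, Mpo and Elane were at the authors' floor on all 4 ventilated and all 3 control jnk1-/- arrays, and Mpo on all 3 wild-type controls. Mpo and Elane, like Cxcr2, Csf3r, Ltf and Ngp, were named after their values were seen. In whole lung, more cells that carry a transcript and more transcript per cell cannot be told apart.

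**Figure D2:**
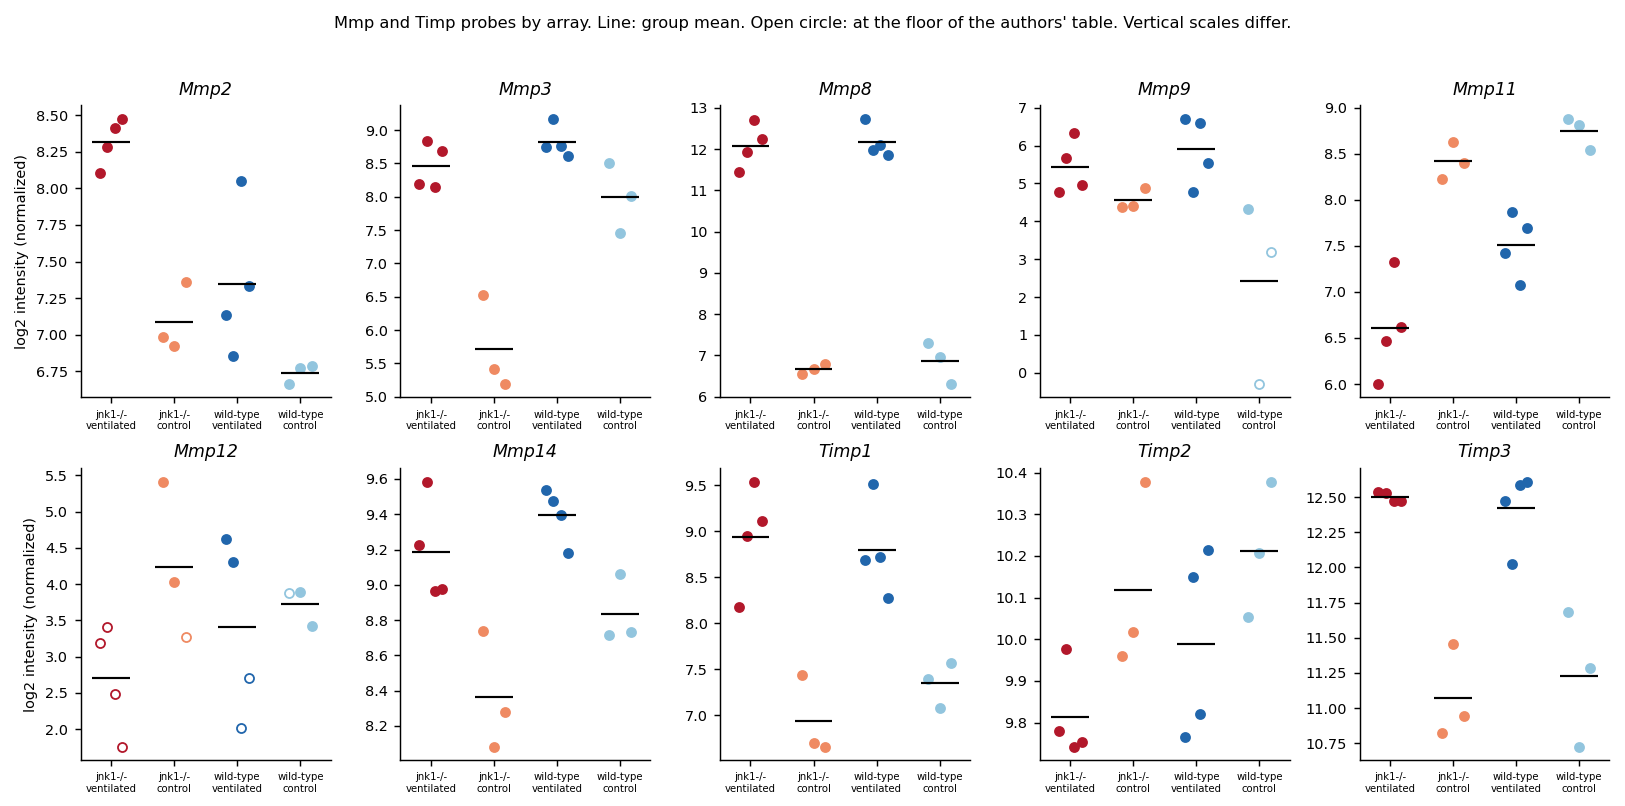
Normalized log2 intensity of each member on each of the 14 arrays, by group, with the group mean as a line; open circles mark values at the floor of the authors' table, and the vertical scales differ between genes. The ventilated arrays of Mmp8 lie between 11.44 and 12.74, and all control arrays between 6.31 and 7.30.

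The gelatinases Mmp2 and Mmp9 cut denatured collagen and the collagen of basement membranes. Mmp2 was called higher with ventilation in jnk1-/- lungs, and Mmp9 was called in neither genotype. Mmp2, the stromal gelatinase, read 8.10, 8.29, 8.41 and 8.48 in ventilated jnk1-/- lungs, against 6.99, 6.92 and 7.36 in their controls. It read 7.14, 6.86, 8.05 and 7.33 in ventilated wild-type lungs, against 6.66, 6.77 and 6.79 in wild-type controls. All ventilated arrays lay above the controls of their genotype, by 0.75 in jnk1-/- and by only 0.07 in wild-type mice. The increase was called in jnk1-/- mice (1.23, SE 0.25, 2.35-fold, adjusted p = 0.00964 in limma). In wild-type mice the difference of 0.60 (SE 0.25) was not called (adjusted p = 0.199). Mmp9, the gelatinase of neutrophils and macrophages, read 4.77, 5.67, 6.34 and 4.97 in ventilated jnk1-/- lungs, against 4.38, 4.41 and 4.89 in their controls, and these groups overlapped. In ventilated wild-type lungs it read 6.71, 4.79, 6.61 and 5.55, against 4.33, -0.29 and 3.19 in wild-type controls. The last 2 of these were at the authors' floor, so 1 of 3 wild-type controls gave a level above it. The difference was 0.88 in jnk1-/- mice (SE 0.89, adjusted p = 0.601) and 3.50 in wild-type mice (SE 0.89, adjusted p = 0.0520), neither of them called in limma. The wild-type value was past the threshold under 9 of 27 other settings, and ranged from 2.02 to 3.72 over the settings that kept all arrays. It was 2.15 without wild-type control replicate 2 (adjusted p = 0.109) and 4.46 without wild-type control replicate 1 (adjusted p = 0.0151), the one array whose removal brought a call in limma. Wild-type control replicate 2, which read -0.29, had 10.7% of its probes at the lowest deposited value. The other arrays had 1.86% to 6.98%.

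Mmp3 and Mmp11 are the stromelysins of the set. Mmp3 cuts proteoglycans, laminin and fibronectin and activates other proforms, while Mmp11 is released in active form and acts on serpins rather than on matrix. Mmp3 read 8.19, 8.84, 8.14 and 8.68 in ventilated jnk1-/- lungs, against 6.53, 5.42 and 5.19 in jnk1-/- controls. It read 8.75, 9.17, 8.77 and 8.61 in ventilated wild-type lungs, against 8.50, 7.46 and 8.01 in wild-type controls. The 3 jnk1-/- controls stood below all other arrays, the highest of them 0.93 below the lowest wild-type control. Mmp3 was higher in ventilated than in control jnk1-/- lungs by 2.75 (SE 0.34, 6.71-fold, adjusted p = 7.7e-04 in limma). The wild-type difference of 0.83 (SE 0.34) was not called (adjusted p = 0.198). The effects differed by 1.91 (95% interval 0.86 to 2.97), which did not pass the threshold over all probes (adjusted p = 0.134 in limma).

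Mmp11 was the only member called lower with ventilation. It read 6.0, 6.47, 7.33 and 6.62 in ventilated jnk1-/- lungs, against 8.22, 8.63 and 8.40 in their controls. It read 7.42, 7.87, 7.08 and 7.69 in ventilated wild-type lungs, against 8.88, 8.81 and 8.54 in wild-type controls. No ventilated array reached a control of its genotype. The difference was -1.81 in jnk1-/- mice (SE 0.29, 3.51-fold lower, adjusted p = 0.00303 in limma) and -1.23 in wild-type mice (SE 0.29, 2.35-fold lower, adjusted p = 0.0383 in limma). From these same arrays, the study singled out Mmp9 among genes higher in ventilated wild-type lungs and Mmp11 among genes lower in ventilated jnk1-/- lungs. Its screen for these used an unadjusted t-test p under 0.05, a looser threshold than the one here.

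Mmp12, the macrophage elastase, was dim. It was at the authors' floor on 4 of 4 ventilated jnk1-/- arrays, 1 of 3 jnk1-/- controls, 2 of 4 ventilated and 1 of 3 control wild-type arrays. Its log2 intensity ranged from 1.76 to 3.42 in ventilated jnk1-/- lungs against 3.27 to 5.41 in their controls, and from 2.01 to 4.63 in ventilated wild-type lungs against 3.42 to 3.90 in theirs. The groups overlapped in both genotypes and no difference was called. None of 12 macrophage markers was called in wild-type lungs, where 2.18% of all probes were called higher and 1.49% lower. In jnk1-/- lungs 1 was lower, where 5.02% of all probes were. This was Fabp5, a fatty acid binding protein of alveolar macrophages and epithelium, at -1.14 (adjusted p = 0.00358 in limma).

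Mmp14, the membrane-anchored protease that activates the proform of Mmp2 together with Timp2, read 9.23, 9.59, 8.97 and 8.97 in ventilated jnk1-/- lungs, against 8.74, 8.08 and 8.28 in their controls. It read 9.54, 9.47, 9.39 and 9.18 in ventilated wild-type lungs, against 8.72, 9.06 and 8.73 in theirs. Ventilated and control arrays did not overlap in either genotype, with gaps of 0.23 in jnk1-/- and 0.12 in wild-type mice. The difference of 0.82 in jnk1-/- mice was called (SE 0.21, 1.77-fold, adjusted p = 0.0279 in limma), and the 0.56 in wild-type mice was not (SE 0.21, adjusted p = 0.162). The jnk1-/- call was lost without jnk1-/- control replicate 2 or 3 or ventilated jnk1-/- replicate 1 or 2, with adjusted p up to 0.108 in limma. It was also lost with the methods' t-test (adjusted p = 0.210). This is the t-test that the study names, applied to the values normalized here and without the study's quality filter. The call was lost, too, with limma fitted to the jnk1-/- arrays alone (adjusted p = 0.130) and with close control arrays averaged (adjusted p = 0.0591).

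Timp1, the inhibitor that is made on demand in injured tissue, read 8.18, 8.94, 9.54 and 9.11 in ventilated jnk1-/- lungs, against 7.44, 6.70 and 6.66 in their controls. In ventilated wild-type lungs it read 8.68, 9.51, 8.72 and 8.27, against 7.40, 7.08 and 7.57 in wild-type controls. The groups stood apart by 0.73 in jnk1-/- and 0.70 in wild-type mice. The increase was 2.01 in jnk1-/- mice (SE 0.36, 4.02-fold, adjusted p = 0.00496 in limma) and 1.45 in wild-type mice (SE 0.36, 2.73-fold, adjusted p = 0.0470 in limma).

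Timp3, the inhibitor that stays bound to the matrix and also blocks ADAM proteases, read 12.53, 12.53, 12.47 and 12.47 in ventilated jnk1-/- lungs, against 10.82, 11.46 and 10.94 in their controls. It read 12.47, 12.02, 12.59 and 12.61 in ventilated wild-type lungs, against 11.68, 10.73 and 11.29 in wild-type controls. Ventilated arrays lay 1.01 above the controls in jnk1-/- and 0.34 above them in wild-type mice, and the 4 ventilated jnk1-/- arrays had an SD of 0.03. The increase was 1.43 in jnk1-/- mice (SE 0.24, 2.69-fold, adjusted p = 0.00411 in limma) and 1.19 in wild-type mice (SE 0.24, 2.28-fold, adjusted p = 0.0218 in limma). Timp2, the inhibitor that most tissues make steadily, ranged from 9.74 to 9.98 in ventilated jnk1-/- lungs against 9.96 to 10.38 in their controls, and from 9.77 to 10.21 in ventilated wild-type lungs against 10.05 to 10.38 in theirs. These ranges overlapped in both genotypes. Its differences of -0.31 (95% interval -0.69 to 0.08) in jnk1-/- and -0.23 (95% interval -0.61 to 0.16) in wild-type mice were not called.

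**Figure D3:**
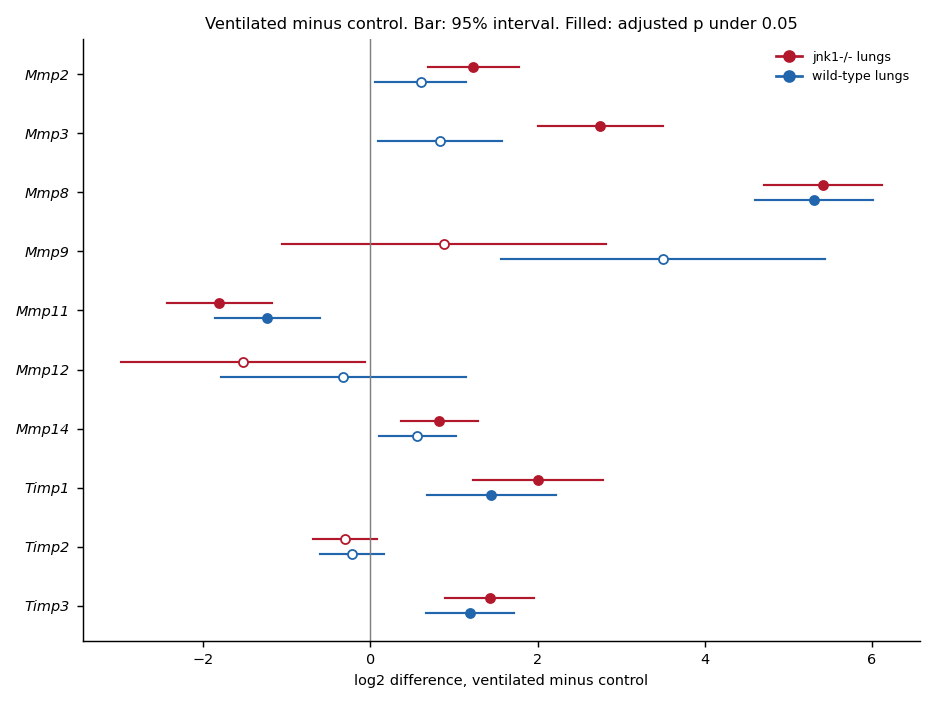
Log2 difference of ventilated minus control lungs for each member, in jnk1-/- and wild-type mice, with 95% intervals from the limma fit; filled points passed an adjusted p of 0.05. Mmp8 lies above 5 in both genotypes, Mmp11 is the only filled point below 0, and Mmp2, Mmp3 and Mmp14 are filled in jnk1-/- mice only.

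Counted over the members, 6 of 10 were called higher and 1 lower in ventilated jnk1-/- lungs, where 6.73% of all probes were called higher and 5.02% lower. In ventilated wild-type lungs 3 were called higher and 1 lower, where 2.18% of all probes were called higher and 1.49% lower. The median difference of the members was 1.05 in jnk1-/- mice, against -0.04 for all probes, and 0.72 in wild-type mice, against 0.08 for all probes. Groups did not overlap for 6 members higher and 1 lower in jnk1-/- mice (12.3% and 11.2% of all probes), and for 7 higher and 1 lower in wild-type mice (11.3% and 10.6% of all probes). The 4 members called in wild-type mice, Mmp8, Mmp11, Timp1 and Timp3, were also called, in the same direction, in jnk1-/- mice. Of the wild-type calls, those of Mmp11, Timp1 and Timp3 lay near the threshold. The count of wild-type calls was 1, Mmp8 alone, on leaving out replicate 2 or 3 of the wild-type controls or replicate 1 or 3 of the ventilated wild-type lungs. It was 2 without ventilated wild-type replicate 4, jnk1-/- control replicate 1 or 2 or ventilated jnk1-/- replicate 2 or 4. With the methods' t-test and the same adjustment, 1 member was called in jnk1-/- mice (Mmp8) and 0 in wild-type mice. Mmp8 had an adjusted p of 0.0563 in wild-type mice in that t-test. The test used the values normalized here, without the study's quality filter, so it does not repeat the study's own selection. That selection listed Mmp8 as regulated in both genotypes. In wild-type mice, limma fitted to the wild-type arrays alone called 1 member. Of all probes called in wild-type mice, 59.4% were higher, against 77.4% with quantile normalization, 43.7% with median centring and 48.7% in the authors' values.

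Between genotypes, the members were compared in control lungs and after ventilation. In controls, Mmp3 was the only member called. It was lower in jnk1-/- lungs by 2.27 on the log2 scale (SE 0.37, 4.84-fold lower, adjusted p = 0.00733 in limma), where 2.16% of all probes were called lower and 1.87% higher. The call was lost when only the control arrays were fitted (adjusted p = 0.132 in limma). It rests on the jnk1-/- control arrays that hold the high muscle and squamous markers described above, as does the ventilation effect of Mmp3 in jnk1-/- mice. In controls Mmp9 was higher in all 3 jnk1-/- arrays than in any wild-type one, by 0.05 at the nearest, where 13.5% of all probes were higher without overlap. Of these wild-type arrays 2 of 3 were at the authors' floor. The Mmp9 difference of 2.15 (SE 0.95) was not called (adjusted p = 0.228 in limma). It was 0.80 without wild-type control replicate 2 and 3.11 without wild-type control replicate 1, and 0.67 with a floor at the 25th percentile. Mmp2 did not overlap between the controls either, with a gap of 0.14 and a difference of 0.35 (adjusted p = 0.497 in limma). For the remaining members the differences in controls ran from -0.47 for Mmp14 to 0.50 for Mmp12.

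After ventilation no member was called between genotypes, where 0.24% of all probes were called higher and 0.285% lower in limma, and 2 of 10 members had an unadjusted p under 0.05, as did 10.1% of all probes. These were Mmp2, higher in jnk1-/- lungs by 0.98 (95% interval 0.47 to 1.48, adjusted p = 0.114), and Mmp11, with a difference of -0.91 (95% interval -1.49 to -0.33, adjusted p = 0.224). The 4 jnk1-/- arrays of Mmp2 lay above the 4 wild-type ones by 0.05 (3.1% of all probes had their jnk1-/- arrays clear above the wild-type ones after ventilation), while those of Mmp11 overlapped. Without ventilated wild-type replicate 3, Mmp2 was called (1.21, adjusted p = 0.0162 in limma). Without ventilated jnk1-/- replicate 3, Mmp11 was called (-1.15, adjusted p = 0.0429 in limma). Mmp3, which differed between the controls, read close values after ventilation, with a difference of -0.36 (95% interval -1.05 to 0.33). The test of the difference between the ventilation effects called none of the 10 members in limma, where 0.194% of all probes were called higher and 0.183% lower, and 1 of 10 members, Mmp3, had an unadjusted p under 0.05, as did 12.9% of all probes. The widest interval was that of Mmp9 (-5.36 to 0.12 around -2.62).

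**Figure D4:**
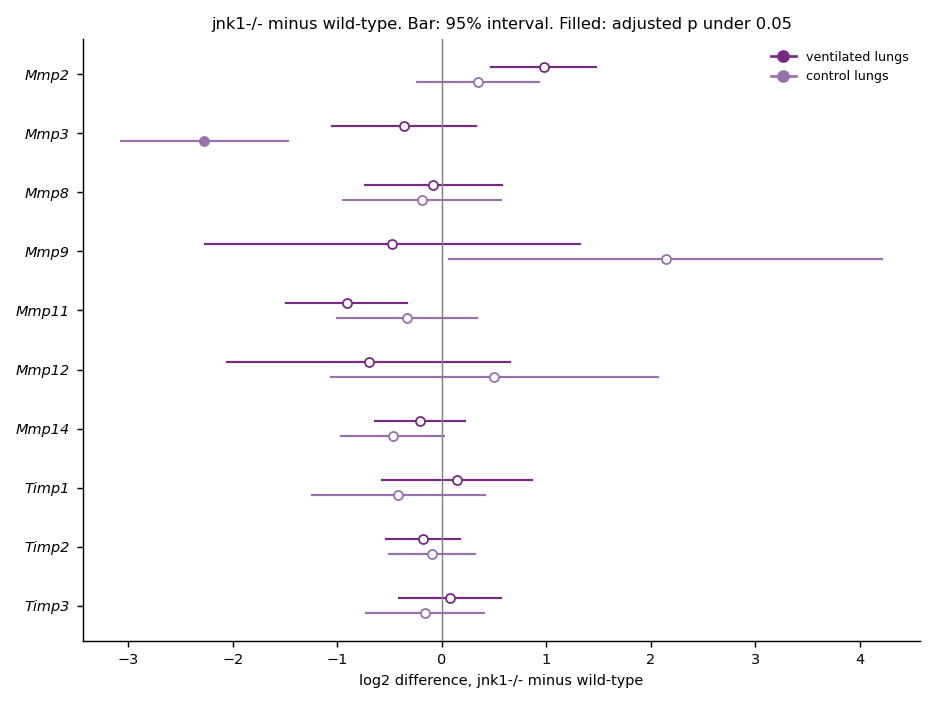
Log2 difference of jnk1-/- minus wild-type lungs for each member, after ventilation and in controls, with 95% intervals; filled points passed an adjusted p of 0.05 in limma. The single filled point is Mmp3 in control lungs at -2.27, and its ventilated point lies at -0.36.

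By group mean, the order of the levels differed among the members. Mmp8, Timp1 and Timp3 had both ventilated groups above both control groups, with the ventilated groups overlapping each other and the control groups overlapping each other. Mmp11 had both control groups above both ventilated groups in the same manner. For Mmp2 the ventilated jnk1-/- lungs came first, clear of ventilated wild-type lungs, which overlapped jnk1-/- controls, and these in turn were clear of wild-type controls. For Mmp3 the jnk1-/- controls came last, clear of wild-type controls, and the 3 other groups overlapped their neighbours. For Mmp9 the wild-type controls came last, clear of jnk1-/- controls, and the 3 other groups overlapped their neighbours. Mmp12, Mmp14 and Timp2 showed overlap between every pair of neighbours in the order.

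The remaining matrix metalloproteinases of the array and Timp4 were read as a list of 13 measured genes. Of these, 1 was higher in ventilated jnk1-/- lungs, where 6.73% of all probes were, and 1 in ventilated wild-type lungs, where 2.18% of all probes were. The same shares, with 5.02% lower in jnk1-/- and 1.49% lower in wild-type lungs, stand beside the counts of every list that follows. The jnk1-/- call was Mmp19, a protease of vessels and basement membrane, at 1.35 (adjusted p = 0.0175 in limma). The wild-type call was Mmp24, a membrane-type protease, at 2.19 (adjusted p = 0.0469), but Mmp24 was at the authors' floor on all 14 arrays. In the cluster on chromosome 9, the neighbours of Mmp3 and Mmp8 were mostly dim. Mmp1a, Mmp10, Mmp13 and Mmp20 were at the authors' floor on all 4 ventilated and all 3 control jnk1-/- arrays, and none of the 6 probed neighbours was called in either ventilation contrast.

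Genes that act on the same proteases were read as lists. In plasminogen activation, which turns on several proforms, 2 of 9 measured genes were higher in ventilated jnk1-/- lungs and 3 in wild-type lungs, with none lower. Plat, tissue plasminogen activator, was higher by 2.12 in jnk1-/- (adjusted p = 0.00772) and 2.37 in wild-type lungs (adjusted p = 0.00964), both in limma. Plaur, the urokinase receptor, was higher by 2.07 in jnk1-/- (adjusted p = 0.00715) and 1.58 in wild-type lungs (adjusted p = 0.0489), both in limma. Of 13 ADAM and ADAMTS proteases, 4 were higher in jnk1-/- and 2 in wild-type lungs, among them Adam8, a sheddase of leukocytes, at 1.74 (adjusted p = 0.00619 in limma) in jnk1-/- and 2.06 (adjusted p = 0.00633 in limma) in wild-type lungs. Of 9 cell surface regulators, 2 were higher and 1 lower in jnk1-/- lungs and 2 higher in wild-type lungs. Lrp1, which clears protease and inhibitor complexes, was higher by 1.37 in jnk1-/- lungs (adjusted p = 5.4e-04 in limma) and by 0.77 in wild-type lungs (adjusted p = 0.0257 in limma). The study had also selected Lrp1 on these arrays, listing it as regulated primarily in jnk1-/- mice.

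Of 20 matrix substrates, 7 were higher in ventilated jnk1-/- lungs and none was called in wild-type lungs. Col4a1, a chain of basement membrane collagen, differed by 1.34 in jnk1-/- lungs (adjusted p = 0.00319 in limma) and by 0.77 in wild-type lungs (adjusted p = 0.0695). No substrate was called in the difference of the effects. Of 20 inducers of these proteases, 5 were higher in jnk1-/- and 2 in wild-type lungs. Fosl1, an AP-1 subunit, was higher by 2.18 in jnk1-/- (adjusted p = 6.4e-04 in limma) and 3.25 in wild-type lungs (adjusted p = 1.1e-04 in limma), and was at the authors' floor on all 3 wild-type controls. Il6, an inflammatory cytokine, was higher by 2.93 in jnk1-/- (adjusted p = 0.0164 in limma) and 3.30 in wild-type lungs (adjusted p = 0.0215 in limma). Fosl1 and Il6 were also among the genes the study singled out from these arrays. Of 14 fibroblast markers, 1 was higher and 1 lower in jnk1-/- lungs and 2 were lower in wild-type lungs. Their median difference was 0.27 in jnk1-/- and 0.09 in wild-type lungs, against -0.04 and 0.08 for all probes. Lum, a collagen-binding proteoglycan, fell by 1.61 in jnk1-/- (adjusted p = 0.0330 in limma) and by 1.84 in wild-type lungs (adjusted p = 0.0392 in limma).

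**Figure D5:**
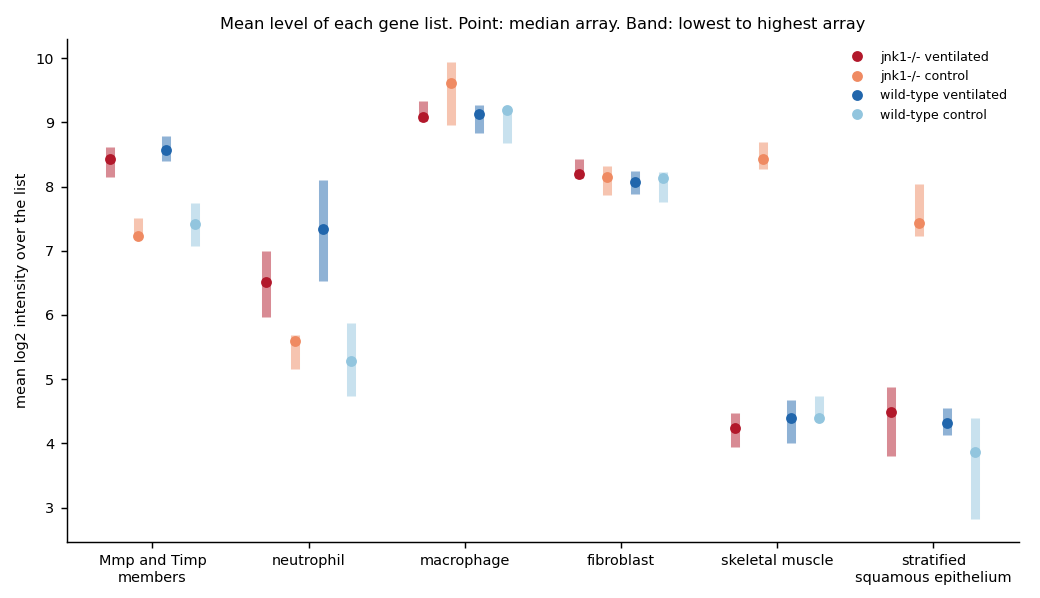
Mean log2 intensity over the members and over 5 marker lists, by group, as the median array (point) and the lowest to the highest array (band). Skeletal muscle and squamous markers stand high on the jnk1-/- control arrays alone. The means of the members and of the neutrophil markers stand higher on ventilated than on control arrays in both genotypes. Among the members, Mmp8 had the largest difference, while Mmp11, Mmp12 and Timp2 had negative differences in both genotypes.

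The probes most like each member over the 14 arrays were found among 12072 named probes above the 25th percentile in mean level, by Pearson correlation as a measure of likeness only, since the arrays share their groups. Mmp8 was most like Il1r2, the decoy receptor for interleukin-1 (r = 0.983), which differed by 5.23 in jnk1-/- and 6.25 in wild-type lungs, followed by Clec4d, a lectin of myeloid cells, and Tinagl1, a secreted matrix protein (both r = 0.973). Timp1 was most like Nupr1, a stress-induced nuclear protein (r = 0.957), which differed by 2.41 in jnk1-/- and 2.12 in wild-type lungs. Mmp11 was most like Psmb10, a subunit of the immunoproteasome (r = 0.959), at -1.20 in jnk1-/- and -0.75 in wild-type lungs. Mmp3 was most like Lama2, a laminin chain (r = 0.967), Dync1h1, the dynein heavy chain (r = 0.966), and Ltbp2, an elastic fibre protein (r = 0.963). Mmp14 was most like Sdcbp2 (r = 0.925) and Bmp1, the procollagen C-proteinase (r = 0.923), Timp3 like Pxdc1 (r = 0.964), and Mmp2 like Lrrk2, a kinase (r = 0.899).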

How the data were processed

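For each array the authors deposited log2 intensities of its 19621 probes that had not been normalized between arrays (the lowest was -6.86). They also deposited a log2 table normalized by cyclic loess, with a floor at 3.12. Quality flags and the build of the array's design were not used here. Here the unnormalized values were corrected by cyclic loess (span 0.7, 3 passes, all array pairs fitted on the same values), and any value below the 1st percentile was raised to it (-0.63). This form was chosen after the data and the calls of both forms had been seen. The reason given was that correcting 1 pair after another left shifts that followed array order on simulated data. The distortions planted in the simulation themselves rose with array order. It therefore cannot tell an effect of the order of correction from distortion left uncorrected. Mmp9 and Mmp11 in wild-type lungs lie on opposite sides of the threshold in the 2 forms. Means of 4 groups were fitted over all 14 arrays in limma 3.58.1 (R 4.3.3; lmFit, eBayes, Benjamini-Hochberg). Of the probes, 15353 named 1 gene, 91 several and 4177 none. Named genes were the members, up to 4 called genes of each list with the smallest adjusted p, cluster neighbours, Mapk8 and the 3 most alike genes. Members and lists were chosen with earlier results of these data known. Tables and figures used Python 3.11.15, pandas 2.3.3 and matplotlib 3.10.9. Alternatives in normalization, floor, value table, test, arrays, filter, block and weights were run. The close control arrays that were averaged were wild-type replicates 2 and 3, and jnk1-/- replicates 1 and 2. Their probe differences had an SD of 0.43 and 0.36, against 0.51 to 0.69 for the other control pairs. The reason for this closeness was not tested.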

Additional observations from a re-analysis of the deposited data

Results flagged for a closer look

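Among 20 groups of 4 arrays tested (10 members in 2 ventilated groups), 1 held an array far from the others, and chance flags about 1 in 20. This was Timp2 in ventilated jnk1-/- lungs, where replicate 2 read 9.98 and the others 9.74 to 9.78, so that the gap took 0.845 of the whole range of the group. The range is narrow, and the Timp2 difference was not called with or without this array.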

How the results depend on the processing

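Every call of a member kept its direction under all settings run. In wild-type ventilation the number of members called was 4. It was 0 with the methods' t-test, 1 with only the compared groups in the fit, 1 with the replicate block, 1 with close control arrays averaged, and 1 to 4 on leaving out an array. Mmp8 was called in 26 of 27 alternatives there, Timp3 in 17, and Mmp11 and Timp1 in 11 each. In jnk1-/- ventilation the number was 7, 1 with the methods' t-test and 6 to 7 without an array. There Mmp14 was called in 20 of 27 alternatives and Mmp2 in 25, Mmp2 being lost with the methods' t-test (adjusted p = 0.101) and with close control arrays averaged (adjusted p = 0.0591). Between controls it was 1, with 0 by the methods' t-test and 0 with only the compared groups, and 1 without any single array. After ventilation it was 0, and 0 to 1 without an array. For the difference of the effects it was 0 throughout. The arrays' numbers do not pair the samples (correlations of their deviations between -0.04 and 0.08). Over all probes, the replicate block gave 200 higher and 104 lower calls in wild-type ventilation, against 427 and 292 without it, and the methods' t-test 4 and 5. With close control arrays averaged there were 158 higher and 65 lower calls.

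Uncalled differences near 0 changed sign. With a floor at the 25th percentile, Mmp12 in wild-type ventilation was 0.25. With array weights, Mmp8 between controls was 0.020, its difference of effects -0.060 and that of Timp2 0.0903. With arrays corrected pair by pair, Timp2 between controls was 0.017 and Mmp8 after ventilation 0.047. With close control arrays averaged, Timp2 between controls was 0.010, with quantile normalization Timp3 after ventilation -0.022, with the fast form of cyclic loess the Mmp8 difference of effects -0.040, and with median centring that of Timp2 0.32. On leaving out an array, Mmp12 ran from -0.73 to 0.14 in wild-type ventilation and from -0.086 to 0.99 between controls. Between controls Mmp8 ran from -0.46 to 0.036 and Timp3 from -0.41 to 0.067. After ventilation Mmp8 ran from -0.29 to 0.13, Timp1 from -0.055 to 0.40 and Timp3 from -0.055 to 0.14. The difference of effects ran from -0.12 to 0.38 for Mmp8 and from -0.16 to 0.050 for Timp2. The cause of these changes was not tested. Values at the authors' floor limit Mmp9 in wild-type controls and Mmp12 in most groups.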
